A study of Mus musculus with 12 samples.

Results

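Non-CG methylation was followed in 5 genes of the oligodendrocyte lineage, Olig1, Olig2, Sox10, Pdgfra and Cspg4, out of 23882 genes measured in mouse cortex. The 5 genes were picked by name, with earlier results of these data known. Non-CG methylation (mCH) sits on a cytosine whose next base is anything but guanine. The level of a gene is the share of its non-CG cytosine calls that were methylated in whole-genome bisulfite sequencing, in percent. All 12 libraries came from cortex of mice of C57BL/6 background. At postnatal day 40 (P40), 4 libraries were wild type (WT) and another 4 carried the label miR29 KO. At 4 months there were 2 WT libraries and 2 labelled Dnmt3a mi5, whose titles read DNMT3AmiR29MUT. Which miR-29 genes are deleted in the KO, and in what cells, is not in the labels, nor is whether a library is 1 animal or a pool. The p-values therefore rest on the spread among these libraries, which may be technical.

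Oligodendrocyte precursor cells divide throughout life and mature into the myelinating cells of the brain. Olig1 and Olig2 encode related basic helix-loop-helix transcription factors, and Olig2 is needed to specify the lineage. Sox10, an HMG-box factor of the SoxE family, drives myelin genes. Pdgfra encodes the receptor for the mitogen PDGF-A, and Cspg4 encodes the proteoglycan NG2; both proteins mark the surface of precursor cells. In the brain mCH is written by the methyltransferase DNMT3A, builds up after birth mainly in neurons, and tends to be sparse over genes active in the cell concerned. Dnmt3a mRNA is a known target of miR-29. Since the DNA came from whole cortex, a level is an average over all its cells, and a different share of neurons and a different level per cell cannot be told apart.

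The mature miR-29 microRNAs, shown because the KO is named for them, share 1 seed. The seed, bases 2 to 8, is in capitals, and the sequences are those of RefSeq (GRCm38.p6).
mmu-miR-29a-3p: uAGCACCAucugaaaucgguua
mmu-miR-29b-3p: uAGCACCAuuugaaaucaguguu
mmu-miR-29c-3p: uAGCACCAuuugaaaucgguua

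The start regions of Olig2, Pdgfra and Cspg4 are shown because the first had almost no mCH and the other two had much. RefSeq sequences (GRCm38.p6) of 300 bases were matched by symbol for these 3 of the 5 genes, and not for Olig1 and Sox10. Each CG is in capitals, so every lower-case c is a non-CG cytosine, except the last base, whose next base is not shown.
Olig2, chr16:91225300-91225599, plus strand: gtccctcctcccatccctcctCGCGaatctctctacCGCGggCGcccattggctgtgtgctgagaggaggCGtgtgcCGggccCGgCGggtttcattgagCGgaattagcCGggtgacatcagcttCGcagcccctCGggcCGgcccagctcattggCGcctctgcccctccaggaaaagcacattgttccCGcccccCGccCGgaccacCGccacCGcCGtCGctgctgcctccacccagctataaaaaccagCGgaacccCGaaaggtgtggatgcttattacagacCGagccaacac
Pdgfra, chr5:75152001-75152300, plus strand: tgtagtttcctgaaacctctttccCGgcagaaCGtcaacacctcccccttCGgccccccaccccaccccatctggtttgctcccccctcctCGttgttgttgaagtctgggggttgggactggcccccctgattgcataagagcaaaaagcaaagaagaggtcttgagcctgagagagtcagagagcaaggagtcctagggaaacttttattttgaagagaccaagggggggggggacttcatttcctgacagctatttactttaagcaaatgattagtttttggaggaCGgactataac
Cspg4, chr9:56864854-56865153, plus strand: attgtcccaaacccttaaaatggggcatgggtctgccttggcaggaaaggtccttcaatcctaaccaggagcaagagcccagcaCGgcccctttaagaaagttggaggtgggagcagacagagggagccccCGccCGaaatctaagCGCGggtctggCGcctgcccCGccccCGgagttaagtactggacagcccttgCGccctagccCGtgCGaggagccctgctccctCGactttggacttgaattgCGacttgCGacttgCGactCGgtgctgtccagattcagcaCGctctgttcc
The Olig2 sequence holds 25 CG, the Cspg4 sequence 17 and the Pdgfra sequence 5. Of 32851 promoters of this length 18.4% hold as many CG as Olig2 or more, 31.4% hold as many as Cspg4 or more, and 38.0% hold fewer than Pdgfra. The median is 7. CG reads the same on both strands. The letters describe these windows only, while the levels below are those of whole gene rows on mm9.

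The libraries held 399563492 to 732985426 non-CG calls over all genes. The median of 19826 genes with at least 500 calls in every library was 1.21% to 1.44% in WT at P40, 1.63% to 2.39% in the KO, 1.21% to 1.23% in WT at 4 months and 2.20% to 2.22% in mi5. As a check of the labels, the 4 miR-29 genes together had 121 to 244 calls in WT at P40, against 6 to 69 in the KO. Coverage of Y-linked genes was low in 4 libraries, 1 per group: WT replicate 2 and KO replicate 3 at P40, and WT replicate 2 and mi5 replicate 1 at 4 months. Among the members, Pdgfra had 13436 to 31939 calls per library, Cspg4 8736 to 25622 and Sox10 2296 to 7794. Olig2 had 405 to 2416 and Olig1 153 to 1495, so these 2 did not meet the minimum of 500 calls in every library and were tested only in a fit without it. Intervals given for single libraries or for summed calls are 95% Wilson intervals and cover counting error only.

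The 5 genes fell into 3 tiers of mCH in WT cortex. Pdgfra and Cspg4 were high, Sox10 was near the median gene, and Olig1 and Olig2 were close to free of mCH. At P40 the mean WT level was 2.34% ± 0.308 for Pdgfra, 2.22% ± 0.186 for Cspg4, 1.04% ± 0.229 for Sox10, 0.282% ± 0.231 for Olig1 and 0.222% ± 0.133 for Olig2 (SD, n = 4). Of the tested genes, 89.3% had a lower mean than Pdgfra, 85.9% than Cspg4, 38.9% than Sox10, 0.6% than Olig1 and 0.1% than Olig2. Olig1 and Olig2 are not themselves in that set, which leaves out genes of few calls. In single WT libraries at P40 the share of tested genes that were lower ran up to 16.6% for Olig1 and 4.5% for Olig2. The WT ranges of Pdgfra and Cspg4 overlapped at P40, with Pdgfra the higher in 3 of 4 libraries, and did not overlap at 4 months, with Pdgfra the higher in 2 of 2. Those of Olig1 and Olig2 overlapped at both ages, and their means did not keep 1 order. The ranges of Cspg4 and Sox10, and of Sox10 and Olig1, did not overlap in WT at P40. The tiers were the same in each of the other 3 groups. In WT at 4 months Pdgfra was at 2.49% ± 0.0682, Cspg4 at 2.28% ± 0.00517, Sox10 at 1.15% ± 0.242, Olig2 at 0.277% ± 0.109 and Olig1 at 0.148% ± 0.209 (SD, n = 2).

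**Figure D1:**
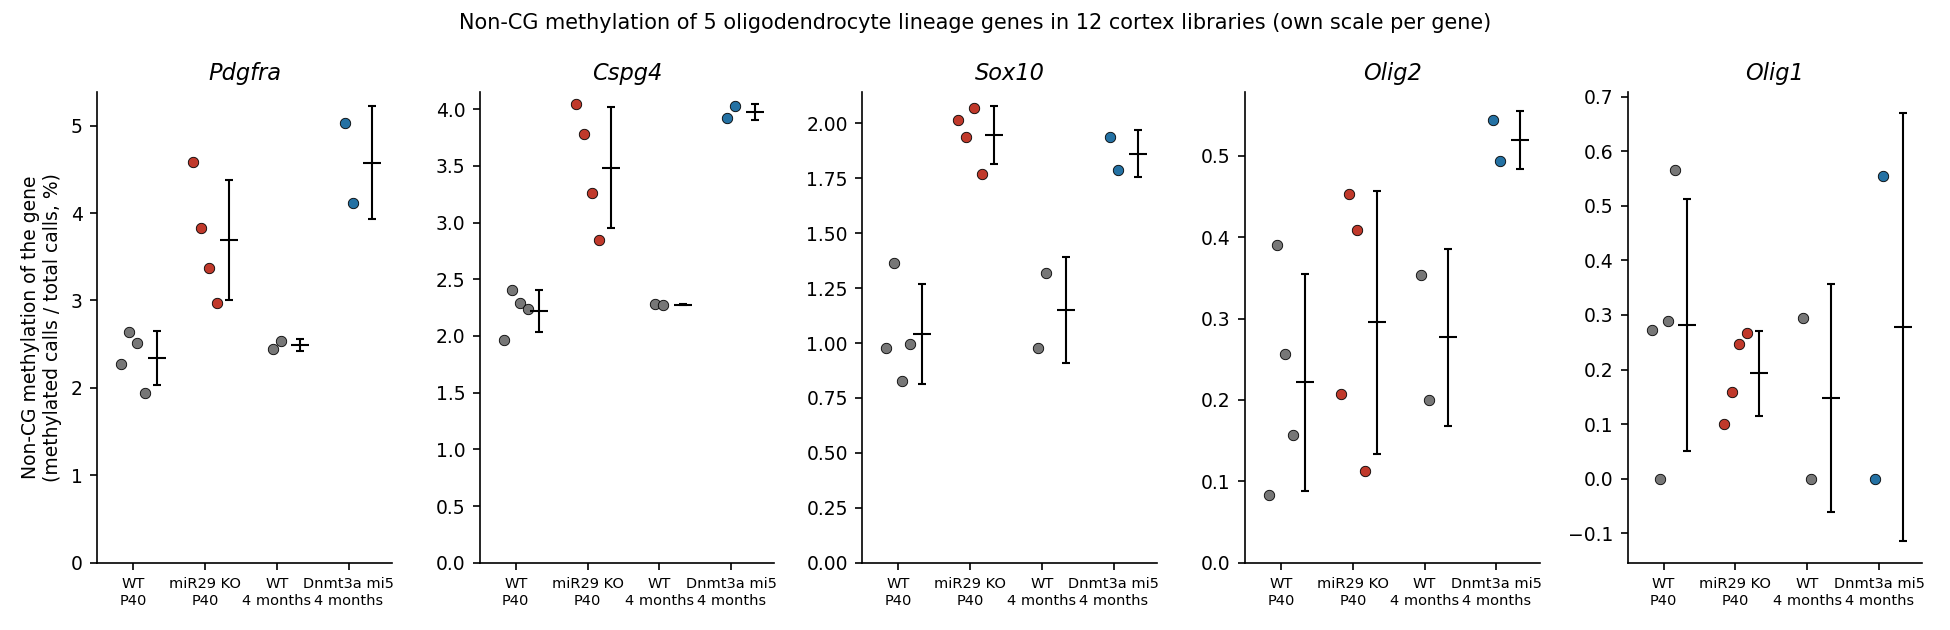
Level of each gene (vertical axis, methylated over total non-CG calls in percent, on a scale of its own for each gene) in each library (points, in order of replicate number) of the 4 groups (horizontal axis); the bar beside the points is the mean with its SD. The KO libraries of Pdgfra, Cspg4 and Sox10 all lie above the WT libraries at P40, as in 57.1% of all tested genes. Those of Olig1 and Olig2 overlap the WT libraries.

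In the miR29 KO at P40, Pdgfra, Cspg4 and Sox10 rose, and Olig1 and Olig2 did not pass the test. Pdgfra rose 1.58-fold to 3.69% ± 0.688, Cspg4 1.57-fold to 3.48% ± 0.533 and Sox10 1.87-fold to 1.95% ± 0.132 (SD, n = 4). These are 3 of the 3 members that could be tested with the minimum of calls, beside 76.5% of all tested genes called higher and 0.0454% called lower. The receptor and proteoglycan genes changed by about as much as the median gene, whose log2 odds ratio was 0.65.

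Pdgfra was at 2.28%, 2.64%, 2.52% and 1.94% in WT replicates 1 to 4 and at 4.58%, 3.83%, 3.38% and 2.98% in KO replicates 1 to 4. The lowest KO library thus lay above the highest WT library, as in 57.1% of all tested genes. Replicate 4 was the lowest in both groups. The odds ratio was 1.61 (95% interval 1.33 to 1.95), a log2 odds ratio of 0.69 with SE 0.13 (quasi-binomial model with limma-moderated dispersion, adjusted p = 0.000163). By a two-sided exact permutation test of the levels p was 0.0286, the smallest that 4 against 4 allow.

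Cspg4 was at 1.96%, 2.40%, 2.29% and 2.24% in WT and at 4.04%, 3.78%, 3.26% and 2.85% in the KO, in order of replicate number. Again no KO library reached down to a WT library, as in 57.1% of all tested genes. The odds ratio was 1.60 (1.36 to 1.89), a log2 odds ratio of 0.68 with SE 0.11 (adjusted p = 6.66e-05; exact permutation p = 0.0286). The KO libraries stood in the same order for Pdgfra, Cspg4 and the median gene, which was at 2.39%, 2.21%, 2.06% and 1.63% in KO replicates 1 to 4.

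Sox10 was at 0.979%, 1.36%, 0.826% and 0.996% in WT and at 2.01%, 1.94%, 2.07% and 1.77% in the KO. The groups did not overlap, and the KO libraries lay closer together than those of Pdgfra or Cspg4. The odds ratio was 1.87 (1.45 to 2.41), a log2 odds ratio of 0.90 with SE 0.18 (adjusted p = 0.000192; exact permutation p = 0.0286). This log2 odds ratio was above that of 93.9% of tested genes, against 58.7% for Pdgfra and 57.2% for Cspg4. No overlap, with every KO library above every WT library, was seen in 57.1% of all tested genes.

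Olig2 had 2 of 2416, 9 of 2303, 3 of 1172 and 3 of 1914 calls methylated in WT, levels of 0.0828%, 0.391%, 0.256% and 0.157%. In the KO it had 4 of 1925, 8 of 1768, 8 of 1959 and 2 of 1767, levels of 0.208%, 0.453%, 0.408% and 0.113%. The groups overlapped in part: KO replicates 2 and 3 lay above every WT library, and WT replicate 1 below every KO library. In the fit of 23366 genes without a minimum of calls the odds ratio was 1.36, with an interval of 0.561 to 3.31 (adjusted p = 0.534; exact permutation p = 0.514). That interval holds both no change and the 1.57-fold odds of the median gene, so these 2 could not be told apart. Whether some of these few calls were unconverted cytosines was not tested.

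Olig1 had 3 of 1102, 0 of 1211, 2 of 692 and 5 of 885 calls methylated in WT, levels of 0.272%, 0%, 0.289% and 0.565%. In WT replicate 2 the Wilson interval of the count of 0 reached up to 0.316%. In the KO it had 1 of 996, 2 of 1256, 2 of 809 and 4 of 1495, levels of 0.100%, 0.159%, 0.247% and 0.268%. The KO libraries lay within the WT range. The odds ratio was 0.768, with an interval of 0.239 to 2.46 (adjusted p = 0.692; exact permutation p = 0.486), and without WT replicate 4 the log2 odds ratio turned from -0.38 to 0.25. In every KO library both genes were under 0.46%, while the 1st percentile of gene levels in those libraries was 0.258% to 0.287%.

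**Figure D2:**
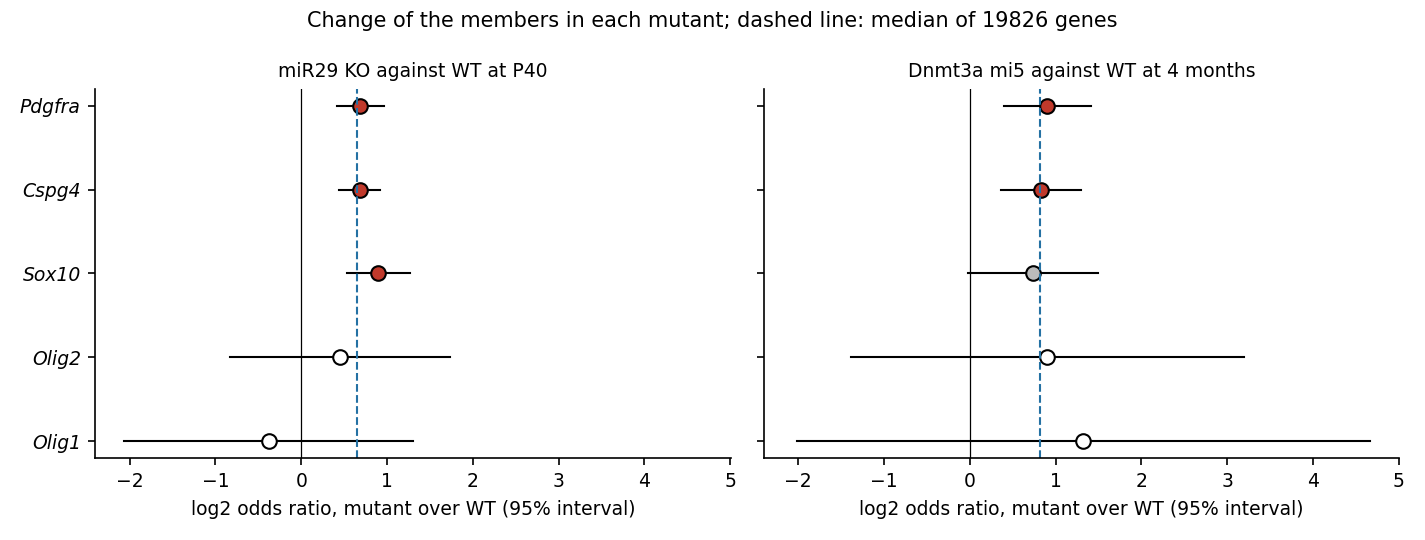
Log2 odds ratio of each gene, mutant over WT (horizontal axis), with its 95% interval (line), in the miR29 KO at P40 and in Dnmt3a mi5 at 4 months. Red points passed the adjusted threshold, the grey point did not, white points (Olig1, Olig2) come from the fit without a minimum of calls, and the dashed line is the median of all tested genes; the intervals of Pdgfra, Cspg4 and Sox10 hold that median in both comparisons.

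In the Dnmt3a mi5 cortex at 4 months, Pdgfra and Cspg4 rose, and Sox10, Olig1 and Olig2 did not pass the test. Pdgfra rose 1.84-fold to 4.57% ± 0.647 and Cspg4 1.75-fold to 3.98% ± 0.0707 (SD, n = 2). The count is 2 of 3 testable members, beside 58.8% of all tested genes called higher and 0% lower. With 2 libraries against 2 an exact permutation test cannot go below p = 0.333, the value found for Pdgfra, Cspg4, Sox10 and Olig2.

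Pdgfra was at 2.44% and 2.54% in WT and at 5.03% and 4.12% in mi5. Both mi5 libraries were above both WT libraries, as in 86.2% of all tested genes, and differed between themselves by more than the WT libraries did. The odds ratio was 1.87 (1.32 to 2.66), a log2 odds ratio of 0.90 with SE 0.24 (quasi-binomial model, adjusted p = 0.0055). The call was lost without WT replicate 1 (log2 odds ratio 0.88, adjusted p = 0.0519) and without mi5 replicate 1 (log2 odds ratio 0.75, adjusted p = 0.0544).

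Cspg4 was at 2.28% and 2.27% in WT and at 3.93% and 4.03% in mi5. The libraries of each group lay close together. Both mi5 libraries were above both WT libraries, as in 86.2% of all tested genes. The odds ratio was 1.78 (1.29 to 2.46), a log2 odds ratio of 0.83 with SE 0.22 (adjusted p = 0.00544). With single libraries left out, Cspg4 had adjusted p up to 0.0488. Leaving out a 4-month library leaves 1 in its group, which is then assumed to vary like the libraries of the other groups. Without the 4 libraries of low Y-gene coverage, which leaves 1 library per group at 4 months, neither Pdgfra (adjusted p = 0.139) nor Cspg4 (adjusted p = 0.127) passed, at log2 odds ratios of 0.78 and 0.85.

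Sox10 was at 0.979% and 1.32% in WT and at 1.94% and 1.79% in mi5. The groups did not overlap, which holds for 86.2% of tested genes, but the log2 odds ratio of 0.74 with SE 0.36 did not pass (adjusted p = 0.0843). It passed when only the 4-month libraries were fitted (adjusted p = 0.0305) and by limma on log2(percent + 0.1) (adjusted p = 0.0119), though not by limma weighted by total calls (adjusted p = 0.129). Unlike at P40, the log2 odds ratio of Sox10 ranked below those of Pdgfra and Cspg4. It was above that of 36.3% of tested genes, against 63.9% for Pdgfra and 51.2% for Cspg4.

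Olig2 had 4 of 1131 and 2 of 1000 calls methylated in WT, and 4 of 735 and 2 of 405 in mi5. Both mi5 levels, 0.544% and 0.494%, were thus above the higher WT level of 0.354%, an order seen in 86.2% of all tested genes. Olig1 had 2 of 677 and 0 of 479 in WT and 0 of 153 and 3 of 541 in mi5. The Wilson interval of 0 of 153 in mi5 reached up to 2.45%. Neither gene passed (adjusted p = 0.51 for Olig2, adjusted p = 0.509 for Olig1), and their odds ratios had intervals of 0.383 to 9.18 and 0.247 to 25.4. These intervals leave the size of any change at Olig1 and Olig2 unmeasured at 4 months. Summed over both libraries, mi5 had 6 of 1140 calls methylated at Olig2 (0.526%, 0.241 to 1.14) and 3 of 694 at Olig1 (0.432%, 0.147 to 1.26).

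The changes of both mutants were then set against each other, each measured against WT of its own age. None of the 3 members with enough calls passed the test of a difference. The difference in log2 odds ratio, mi5 minus KO, was 0.22 for Pdgfra (95% interval -0.36 to 0.79), 0.15 for Cspg4 (-0.37 to 0.67) and -0.16 for Sox10 (-1.01 to 0.68), with adjusted p = 0.998 for each. None of the 3 had an unadjusted p under 0.05, and limma on log2 levels also called 0 of 3. Over all genes this test called 0 in either direction, with 289 of 19826 at an unadjusted p under 0.05. That is less than the share of 0.05 that no difference at any gene would give, so the test was cautious here. As ratios of odds ratios the intervals ran from 0.779 to 1.73 for Pdgfra, from 0.772 to 1.60 for Cspg4 and from 0.498 to 1.61 for Sox10, and differences within them were not measurable. For Olig1 (0.244 to 43.6) and Olig2 (0.223 to 8.49) in the fit without a minimum the intervals measured nothing.

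WT libraries of both ages were compared as well, although age and the set of libraries cannot be told apart. The log2 odds ratio, 4 months over P40, was 0.09 for Pdgfra (-0.36 to 0.54), 0.04 for Cspg4 (-0.36 to 0.43) and 0.09 for Sox10 (-0.55 to 0.72), with adjusted p = 1 for each. None had an unadjusted p under 0.05, and the same model called 0.131% of all tested genes higher and 0% lower. Limma on log2 levels also called 0 of the 3. Relative to the shift common to all genes, the log2 difference was 0.19 for Pdgfra (unadjusted p = 0.0739, adjusted p = 0.383), 0.13 for Cspg4 (unadjusted p = 0.0584, adjusted p = 0.351) and 0.23 for Sox10 (unadjusted p = 0.205, adjusted p = 0.568), all by limma. By that measure 0.898% of all tested genes were called higher and 0.282% lower.

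Because most genes rose together in both mutants, each member was also divided by the median level of its own library. Pdgfra stood at 1.79 ± 0.129 times the median in WT at P40 and at 1.78 ± 0.122 times in the KO, and Cspg4 at 1.70 ± 0.0978 and 1.68 ± 0.0727 times (SD, n = 4). Both genes therefore kept about the same place above the median gene. Sox10 stood at 0.795 ± 0.141 times the median in WT and 0.952 ± 0.113 times in the KO, with overlapping libraries. Olig2 stood at 0.164 ± 0.0866 and 0.140 ± 0.0714 times, and Olig1 at 0.225 ± 0.190 and 0.0995 ± 0.0537 times. Those values rest on 0 to 9 methylated calls per library, and their change relative to the common shift was not tested.

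At 4 months the ratios to the library median were 2.04 ± 0.0806 in WT and 2.07 ± 0.285 in mi5 for Pdgfra, 1.87 ± 0.0184 and 1.80 ± 0.0389 for Cspg4, and 0.944 ± 0.210 and 0.843 ± 0.0458 for Sox10 (SD, n = 2). For Olig2 they were 0.226 ± 0.0863 and 0.235 ± 0.0153, and for Olig1 0.120 ± 0.170 and 0.126 ± 0.178. Tested by limma on log2(percent + 0.1) after centring each library on its median, the KO change relative to the common shift was 0.01 for Pdgfra (95% interval -0.16 to 0.18), 0.00 for Cspg4 (-0.11 to 0.11) and 0.25 for Sox10 (-0.06 to 0.55). At 4 months it was 0.04 (-0.20 to 0.28), -0.03 (-0.18 to 0.12) and -0.14 (-0.58 to 0.29). None of these passed (adjusted p from 0.376 to 0.995), and none had an unadjusted p under 0.05. The direction of the Pdgfra and Cspg4 values turned under other centrings or left-out libraries. By this test 0 genes of 19826 were called at P40, and 1 higher (0.00504%) and 2 lower (0.0101%) at 4 months.

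**Figure D3:**
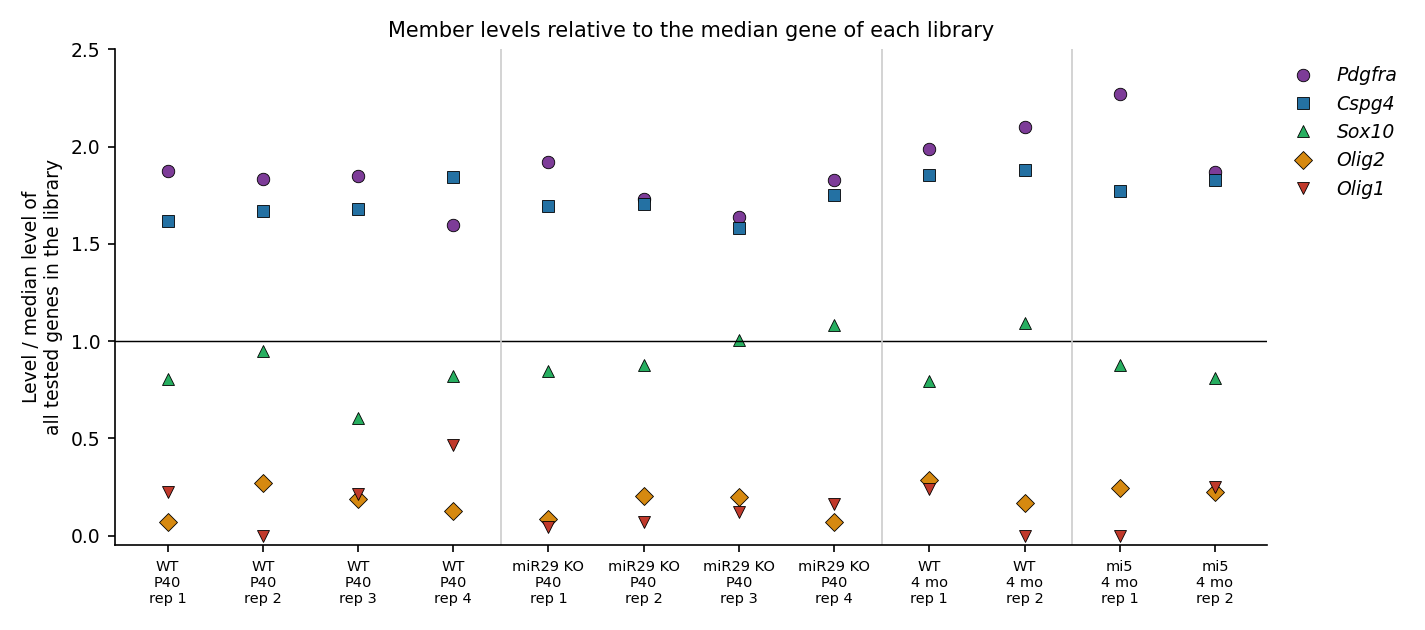
Level of each gene divided by the median level of all tested genes in the same library (vertical axis) for the 12 libraries (horizontal axis, grouped by genotype and age); the line at 1 is the median gene. Pdgfra and Cspg4 lie between 1.58 and 2.27 in every library, Sox10 between 0.606 and 1.09, and Olig1 and Olig2 at or under 0.465.

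Pdgfra had 5 transcript rows in the tables, and its level differed little between them. The row with the most calls, NM_011058, stood for the gene. In WT at P40 the 5 rows had means from 2.23% (NR_144636, 14405 mean calls) to 2.504% (NM_001083316, 26772 mean calls), and in the KO from 3.57% to 3.99% for the same 2 rows. At 4 months they ran from 2.49% to 2.61% in WT and from 4.56% to 4.70% in mi5. The rows belong to 1 gene, can share calls and are not independent. The other 4 genes had 1 row each: NM_016968 (Olig1), NM_016967 (Olig2), NM_011437 (Sox10) and NM_139001 (Cspg4). Mir7025 lies within Pdgfra in GRCm38.p6, so its calls can be those of Pdgfra.

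Olig1 and Olig2 neighbour each other, and most genes around the pair had far higher levels. The 2 nearest genes in the tables on each side of every member were read off GRCm38.p6, a choice made after the member levels were seen. Next to Olig2, 4932438H23Rik rose from 2.28% ± 0.166 to 3.71% ± 0.611 in the KO (SD, n = 4; adjusted p = 7.83e-05). Beyond Olig1, the interferon receptor gene Ifnar2 rose from 1.67% to 2.81% (adjusted p = 5.87e-05) and the cytokine receptor gene Il10rb from 1.91% to 3.24% (adjusted p = 5.71e-05). Paxbp1, on the far side of 4932438H23Rik, had 0.513% and 0.693% (adjusted p = 0.0833). The low levels at this locus were thus measured in Olig1 and Olig2 while 4932438H23Rik and Ifnar2, one on each side, were at 1.67% or above in every group.

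The neighbours of the other members differed among themselves. Kit, a receptor tyrosine kinase gene next but one to Pdgfra, was at 2.502% in WT and rose to 3.95% in the KO (adjusted p = 5.94e-05), and Gm19583 on the other side from 2.59% to 3.98% (adjusted p = 6.67e-05). Gsx2, a homeobox gene under the minimum of calls, was at 0.220% and 0.369%. Beside Sox10, the RNA polymerase subunit gene Polr2f had 0.836% and 0.889% (adjusted p = 0.729), while Gm10863 rose from 2.04% to 3.32% (adjusted p = 5.71e-05). Pick1 had 0.859% and 1.04% (adjusted p = 0.212), and 1700088E04Rik 0.644% and 0.741% (adjusted p = 0.545). Next to Cspg4, the sorting nexin gene Snx33 rose from 1.45% to 2.72% (adjusted p = 8.42e-05), Odf3l1 from 2.88% to 5.04% (adjusted p = 0.00188) and Lingo1 from 1.38% to 1.93% (adjusted p = 0.00199). The other Cspg4 neighbour, Imp3, was under the minimum of calls, at 0.168% in WT and 0.295% in the KO.

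The other PDGF genes rose in the KO as Pdgfra did. All 6 of 6 ligand and receptor genes passed at P40, with a median log2 odds ratio of 0.68, and 4 of 6 at 4 months, with a median of 0.75. Of all tested genes 76.5% were called higher at P40 and 58.8% at 4 months, with median log2 odds ratios of 0.65 and 0.83, so 4 of 6 is near the share of genes in general. The ligand gene Pdgfa rose from 1.41% to 2.39% in the KO (adjusted p = 0.000175), Pdgfb from 1.57% to 2.39% and Pdgfc from 2.02% to 3.18%. Pdgfd rose from 1.69% to 2.72%, the receptor gene Pdgfrb from 1.71% to 2.68% and the receptor-like gene Pdgfrl from 2.73% to 3.99%. At 4 months Pdgfc, Pdgfd, Pdgfrb and Pdgfrl passed; Pdgfa had 1.66% in WT and 2.31% in mi5 (adjusted p = 0.155) and Pdgfb 1.68% and 2.58% (adjusted p = 0.122).

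Of 18 other transcription factors of the lineage, 14 could be tested, and 6 rose in the KO, where 76.5% of all tested genes did, and 7 in mi5, where 58.8% did. Their median log2 odds ratio was 0.55 at P40 and 0.76 at 4 months. The 6 that rose at P40 had 4200 to 337252 mean calls, and the 8 that did not pass had 1119 to 5356. Sox6, which restrains precursor differentiation, rose from 3.83% to 5.28% (adjusted p = 0.000195), Sox5 from 1.95% to 3.18% (adjusted p = 6.26e-05) and the Wnt pathway factor gene Tcf7l2 from 2.93% to 4.38% (adjusted p = 6.39e-05). Of the SoxE relatives of Sox10, Sox8 had 0.880% in WT and 1.26% in the KO (adjusted p = 0.0895) and Sox9 2.28% and 2.99% (adjusted p = 0.0653). At 4 months Sox8 rose from 0.934% to 2.83% (adjusted p = 0.015), while Sox9 had 2.81% and 4.05% (adjusted p = 0.125).

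Of 16 other surface, matrix and stage genes of precursor cells, 16 rose at P40 and 14 at 4 months, beside 76.5% and 58.8% of all tested genes. Their median log2 odds ratios were 0.66 and 0.84. Lhfpl3 rose from 2.87% to 4.30% in the KO and from 2.51% to 4.41% in mi5. The matrix gene Tnr, which encodes tenascin-R, rose from 1.92% to 2.92% and from 1.88% to 3.04%, and the receptor phosphatase gene Ptprz1 from 2.33% to 3.74% and from 2.38% to 3.87%. Ncan, a neurocan gene with 0.791% and 0.877%, and Matn4 with 1.59% and 2.56%, did not pass at 4 months (adjusted p = 0.736 and 0.0606); these 2 were named after their values were seen.

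Genes of mature oligodendrocytes and of astrocytes are given for comparison. Of 16 myelin and mature oligodendrocyte genes 16 rose at P40 and 12 at 4 months, beside 76.5% and 58.8% of all tested genes, with median log2 odds ratios of 0.77 and 0.89. Of 12 astrocyte genes 12 rose at P40 and 10 at 4 months, beside the same 76.5% and 58.8%, with medians of 0.70 and 0.76. The myelin gene Mbp rose from 1.98% to 2.76% in the KO, Ugt8a from 1.96% to 3.04% and Fa2h from 1.89% to 3.38%. The astrocyte glutamate transporter genes Slc1a2 and Slc1a3 rose from 1.29% to 1.68% and from 2.82% to 4.24%, and the bicarbonate transporter gene Slc4a4 from 2.06% to 3.20%. The median for the 3 testable members was 0.69 at P40 and 0.83 at 4 months. None of these lists was tested against other genes.

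**Figure D4:**
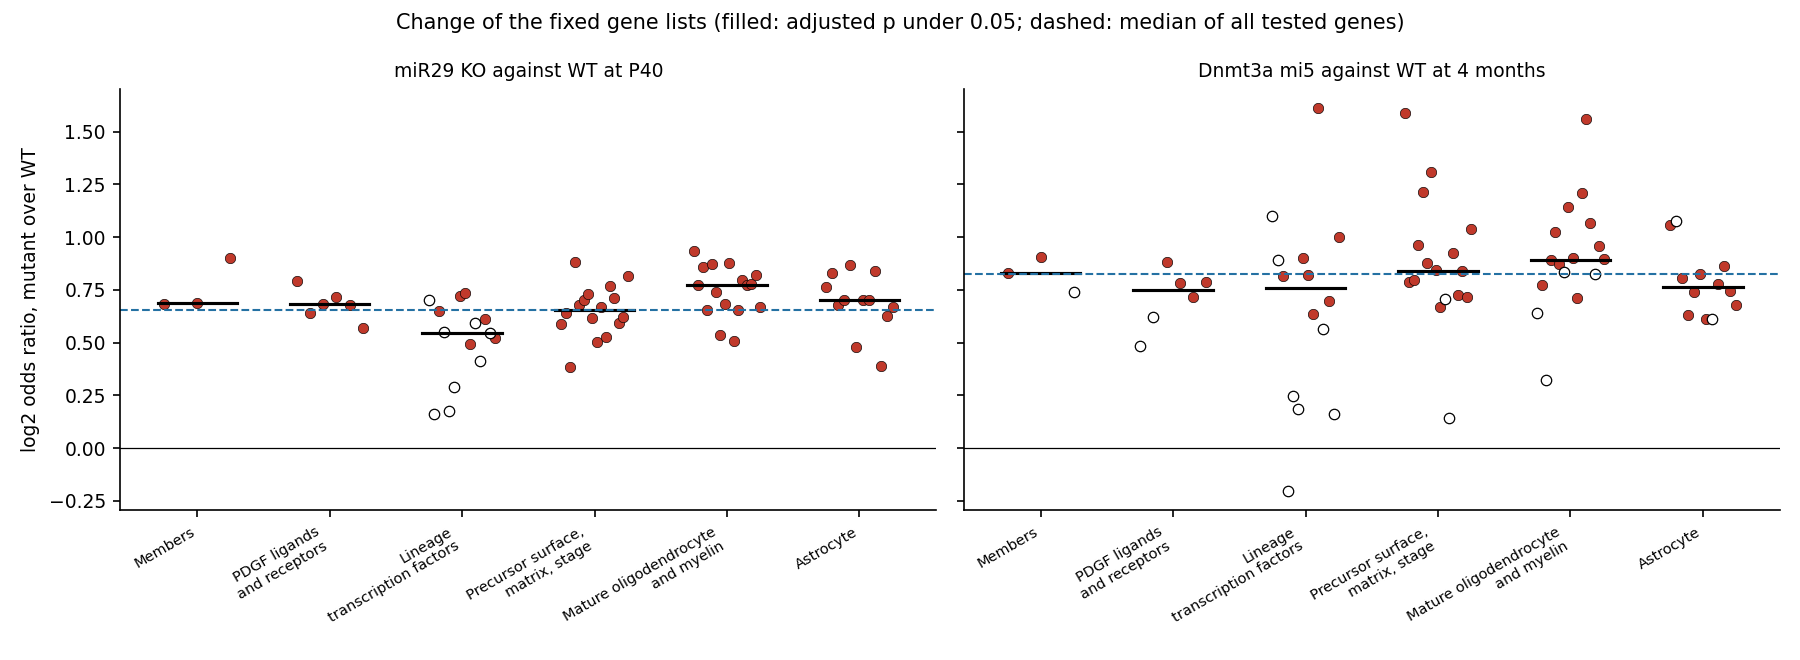
Log2 odds ratio, mutant over WT (vertical axis), of each tested gene (points) of the members and of 5 gene lists (horizontal axis) in both comparisons; filled points passed the adjusted threshold, short lines are list medians and the dashed line is the median of all tested genes. At P40 the open points lie only among the lineage transcription factors, whose median is 0.55.

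The genes whose pattern over the 12 libraries was most like that of each member were found after each library was centred on its median. They are the highest of about 17460 Pearson correlations and are given as a description. For Pdgfra they were Chek2 (r = 0.88), Wnt3 (r = 0.88) and Irf2bpl (r = 0.88), and for Cspg4 St6galnac5 (r = 0.90), Hunk (r = 0.90) and Adnp2 (r = 0.89). For Sox10 they included Fbp1 (r = 0.91) and Zmpste24 (r = 0.86). For Olig1 they were Bahd1, Ptrh2 and Tmem30c (r = 0.91 to 0.88) and for Olig2 Tmem150cos, Kansl1l and Spaca7 (r = 0.87 to 0.84), where the member's own values rest on 0 to 9 methylated calls per library. Between members, Pdgfra and Cspg4 had r = 0.95 before centring and r = 0.37 after it, over the same 12 libraries. That pair had the highest r of all pairs of members both times. The lowest after centring was r = -0.60, for Olig1 and Pdgfra.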

How the data were processed

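Sheared cortical DNA with a lambda spike-in was bisulfite sequenced, per the labels' protocols. BSMAP and the build mm9 are named in the submitters' processing notes, with no BSMAP version given in the sources used here. Each of the 12 tables the authors deposited gives 2 values per RefSeq transcript. The first deposited value is a count (methylated calls). The second deposited value, the total calls, was treated as an expected count, being whole for 35.7% to 62.2% of values, which was rounded here. Conversion rates were not used.

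Identifiers were matched to symbols of GRCm38.p6 (300 of 36672 rows had none), 1395 rows with repeated identifiers were left out, and each gene was read from its row of most calls. Genes with at least 500 calls in every library (19826) entered a logistic model with quasi-binomial errors, with 1 mean for each group and all 12 libraries. The dispersion was moderated with limma 3.58.1 (squeezeVar, trend and robust) in R 4.3.3, and the Benjamini-Hochberg adjusted p threshold was 0.05. A group with no methylated call at a gene was given 0.5. The change relative to the common shift used limma on log2(percent + 0.1), each library centred on its median. Single levels used two-sided exact permutation tests in Python 3.11.15 with numpy 2.4.6, pandas 2.3.3 and scipy 1.17.1; figures used matplotlib 3.10.9.

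Both tests were tested on simulated data. There 200 of 19826 genes had their odds raised or lowered 2-fold in the mutants. No shift common to all genes was put in, unlike in the real libraries, where most genes rose together. Unweighted limma made too many false calls at 4 months (38.2% of calls). Fits weighted by total calls were added after seeing the data, with 14.3% false. The quasi-binomial model found 77% of raised and 50% of lowered genes at P40, but 13% and 1% at 4 months. Unweighted limma found 38% and 17% at 4 months. These shares belong to that setting and are not the shares found in the real data. Even so, a gene not called at 4 months may still differ. Replicates of a group differed by more than counting noise (chi-square per gene at least 2.73).

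The members and lists were chosen with earlier results of these data known. Named genes are the members, the 3 genes of each list with the most calls, all PDGF genes, Sox8 and Sox9, and the 3 genes most correlated with each member. For Sox10, 1 of these is not reported here. Neighbouring genes and others so marked were named after their values were seen. Alternatives covered the scale, pseudocount, minimum of calls, transcript row, rounding, background, moderation, samples in the fit, centring, replicate block and left-out libraries.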

Additional observations from a re-analysis of the deposited data

Results flagged for a closer look

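In WT replicate 4 at P40, Pdgfra stood at 1.595 times the median gene of its library, apart from 1.83 to 1.88 times in the other WT libraries of that age. Its gap to the nearest of them took up more of the group's range than the 95% limit for 4 samples allows. It was the only one of 20 groups of values looked at (5 genes, 2 groups at P40, levels and ratios to the median) in which this was so, and chance gives about 5% of groups. The Pdgfra level there was 1.94%, the lowest of the 4 WT libraries.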

How the results depend on the processing

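At P40 3 members were called under every alternative run, leave-one-out included, and for the difference between mutants, the age comparison and the change relative to the common shift 0 were called under every one. At 4 months the count of 2 became 0 without the 4 libraries of low Y-gene coverage and ran from 1 to 2 when single libraries were left out. The Sox10 call at 4 months appeared under 5 alternatives, among them limma without weights, though not with weights.

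Signs turned only for values that did not pass. Relative to the common shift, Cspg4 at P40 (-0.001) became 0.039 with a pseudocount of 0.5, 0.079 centred on the mean, 0.008 centred on all calls together, 0.022 without the 4 libraries of low Y-gene coverage and 0.002 with weights; at 4 months it became 0.033, 0.069 and 0.001 with the pseudocount, centred on the mean and without those 4 libraries. Without those 4 libraries Pdgfra became -0.064 at 4 months and -0.125 for the difference between mutants (-0.020 without centring), and Sox10 at 4 months became 0.013. With a minimum of 2000 calls Pdgfra at P40 became -0.004. Weighted limma gave Olig1 0.026 at P40. The cause was not tested.

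With single libraries left out, values relative to the shift ran from -0.024 to 0.035 for Cspg4 and -0.043 to 0.047 for Pdgfra at P40, from -0.103 to 0.174 for Pdgfra and -0.354 to 0.065 for Sox10 at 4 months, and from -0.113 to 0.165 for the Pdgfra difference between mutants. Without centring, Olig1 at P40 ran from -0.921 to 0.248, the Sox10 difference between mutants from -0.396 to 0.041, and the age comparison from -0.024 to 0.082 for Cspg4 and -0.114 to 0.323 for Sox10.

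The replicate block left 3 members called at P40 and 2 at 4 months; under it the age comparison became -0.041 for Cspg4 and -0.023 for Pdgfra. Same-numbered libraries had correlations of deviations from -0.054 to 0.109 at P40, against -0.136 to 0.206 for libraries of different number. At 4 months the value was -0.089 for the same number and 0.089 otherwise. With 2 libraries per group such values can differ only in sign, so they cannot decide on pairing. Whether same-numbered libraries shared a batch was not tested. The minimum of 2000 calls could give no value for Olig1 and Olig2, and fitting only the groups compared none for the difference between mutants.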

Other observations

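Levels within the list of lineage transcription factors ranged widely. Olig3, a relative of Olig1 and Olig2, was at 0.320% in WT and 0.363% in the KO at P40, and Sox4 at 0.160% and 0.198%; both were under the minimum of calls and were named after their values were seen. Nkx6-1 was at 0.412% and 0.449% (adjusted p = 0.719). Nkx6-2, a homeobox factor gene of the same list with 1552 mean calls, was at 4.01% and 4.77% (adjusted p = 0.163), a higher WT level than that of Pdgfra or Cspg4. Id4, with 1119 mean calls, was at 2.90% ± 1.02 in WT at P40 (SD, n = 4). Nkx2-2 was at 1.69% ± 1.15 in WT at 4 months (SD, n = 2), where its 2 libraries lay far apart, and at 1.46% in mi5 (adjusted p = 0.714). All of these were named after their values were seen.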
